A study of Homo sapiens with 16 samples.

Results

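The list of interferon-stimulated genes comprised 35 genes, chosen by symbol, and all 35 were found among the 42351 genes of the deposited table. They were read in 2 lung cancer cell lines exposed to hepatocyte growth factor (HGF), the ligand of the receptor tyrosine kinase MET. NCI-H596, an adenosquamous carcinoma line, expressed MET∆14, a receptor that lacks the juxtamembrane segment encoded by exon 14, and A549, an adenocarcinoma line, expressed wt MET. Cells of both lines were deprived of serum, for a time that the labels and the published methods give differently, and were collected before HGF (0 h) or after 3, 6 or 12 h of HGF, with 2 replicates per condition and 16 libraries in all. Untreated cells were collected at 0 h alone, so an effect of HGF and a change over time in serum-free medium cannot be told apart. Each MET status is represented by 1 line, so MET status and cell line cannot be told apart either. The labels name A549 as the wt MET line, whereas the study's text abbreviates EKVX cells as WT, and the labels are followed here. The replicates are called biological duplicates in the published text, which does not say how they were separated, so p-values measure the spread between these samples.

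Interferons bind cell surface receptors, which activate the kinases JAK1 and TYK2 and in turn factors that include STAT2. STAT2 and IRF9 are part of a complex, ISGF3, that binds the interferon-stimulated response element (ISRE) in promoters and drives the transcription of many antiviral genes. The gamma-activated site (GAS) is a further element through which interferon gamma acts. The 35 genes cover the factors that transmit the signal, proteins that bind or degrade viral RNA, the ubiquitin-like modifier ISG15 with its enzymes, and effectors that block viral entry, replication or release. Some tumour cell lines express such genes without added interferon.

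A promoter of 300 bases (250 before to 50 after the start site, RefSeq, GRCh38.p14) was given for 28 of the 35 genes. IRF7, IFIT2, OASL, OAS2, MX2, USP18 and TRIM22 had no entry. The ISRE core was searched as GAAA, NN and GAAA in a row, and the GAS as TTCNNNGAA, each on both strands with overlapping matches allowed, and neither motif contains the other. The ISRE core lay in a promoter of 19 of the 28 genes (67.9%), against 3.57% of all 35116 promoters and 4.38% of the 27305 genes with a promoter. The GAS lay in 8 of the 28 (28.6%), against 7.66% of all promoters and 9.38% of genes. A match is a stretch of letters and not a bound site. Windows are shown for 7 of the genes described below, 5′ to 3′ on the strand of the gene, with the motif in capitals. They are those of ISG15 (chr1:1013364-1013419, plus strand), IFIT3 (chr10:89327821-89327904, plus), IFI44L (chr1:78620355-78620404, plus), SAMD9 (chr7:93118086-93118135, minus), BST2 (chr19:17405725-17405780, minus), ISG20 (chr15:88638927-88638976, plus) and, for a GAS, IRF1 (chr5:132490869-132490917, minus).
ISG15: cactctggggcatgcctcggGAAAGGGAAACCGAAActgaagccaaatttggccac
IFIT3: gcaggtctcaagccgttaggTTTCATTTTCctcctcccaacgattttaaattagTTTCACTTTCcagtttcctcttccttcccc
IFI44L: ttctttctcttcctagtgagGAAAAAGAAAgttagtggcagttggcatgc
SAMD9: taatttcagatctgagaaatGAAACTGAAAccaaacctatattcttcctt
BST2: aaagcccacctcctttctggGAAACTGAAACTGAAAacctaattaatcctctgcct
ISG20: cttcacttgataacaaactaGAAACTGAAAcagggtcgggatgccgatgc
IRF1: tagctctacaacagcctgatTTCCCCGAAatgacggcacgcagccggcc
The capitals mark the ISRE core in the first 6 and the GAS in the last. The windows of ISG15, IFIT3 and BST2 hold 2 cores each, which share bases in ISG15 and BST2.

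Between 10158590 and 23909304 reads were counted per library. Reads of the 35 genes made up 0.394% to 1.03% of the counts in NCI-H596 and 0.0260% to 0.0317% in A549. The epithelial keratin KRT8 was at 493 to 991 CPM, the unit of level used here, in A549 and 541 to 904 CPM in NCI-H596. Other epithelial markers differed between the lines. KRT18 was at 1213 to 1523 CPM in A549 and 358 to 701 CPM in NCI-H596. KRT19 was at 26.7 to 53.1 CPM in A549 and 931 to 1754 CPM in NCI-H596, and CDH1 at 2.54 to 12.6 and 80.7 to 125 CPM. Of 4 leukocyte markers, PTPRC and CD3E had at most 2 counts in any library, whereas CD68 was at 34.3 to 41.8 CPM in A549 and 108 to 154 CPM in NCI-H596 and CD14 at 6.79 to 22.2 CPM in NCI-H596. Of 3 fibroblast markers, PDGFRB was at no more than 0.636 CPM, COL1A1 was at 10.8 to 33.3 CPM over both lines and COL3A1 was at 170.1 to 328 CPM in NCI-H596. The endothelial markers PECAM1, VWF and CDH5 were at no more than 1.84 CPM. The part of these other markers in the results was not tested. EPCAM, an epithelial adhesion molecule, was at 0.868 to 2.97 CPM in A549 and 24.4 to 37.4 CPM in NCI-H596. CDKN2A, which A549 has lost, had 0 counts in A549 and 86.0 to 157 CPM in NCI-H596. MET stood at 1240.4 ± 48.5 CPM (SD, n = 2) in A549 and 369.9 ± 0.576 CPM (SD, n = 2) in NCI-H596 at 0 h. The genes described here shifted together between replicates of NCI-H596. All 35 were higher in replicate 1 than in replicate 2 at 0 h, by 1.03 to 1.37 times (median 1.21). At 3 h, 31 were higher in replicate 1, and at 6 h only 3 were. In A549 only genes of the set with a mean of at least 1 CPM were compared. Of these, 17 of 21 were higher in replicate 1 at 0 h, 14 of 18 at 3 h, 8 of 17 at 6 h and 8 of 18 at 12 h. Shares over all genes were not taken, and which library of a pair stands apart cannot be told. The 12 h replicates of NCI-H596 also differed from each other, as detailed at the end of the time course.

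Before HGF, cells expressing MET∆14 already held high levels of nearly the whole set, and A549 cells did not. In NCI-H596 at 0 h, 34 of the 35 genes were higher than in A549 and 1, ISG20, was lower, at adjusted p under 0.05, beside 40.6% of the 15067 genes tested that were higher and 39.6% that were lower. Of the 35 genes, 12 passed the filter on low counts through NCI-H596 alone and had to differ, so these counts say little about them. Among the 23 genes with at least 20 counts over both A549 libraries, the level in NCI-H596 ranged from 0.193 times (ISG20) to 193.7 times (TRIM22) that in A549, with a median of 26.2 times. For the 23 genes that pass the filter on the A549 libraries alone, the median log2 difference was 4.72, beside 0.02 for all genes tested. The smallest excesses in NCI-H596 were those of IFIT5 (2.18 times), IRF1 (4.05 times) and STAT2 (4.39 times).

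At the low end, 7 of the 35 genes had at most 3 counts in every A549 library, and IFI44L had 0 in all 8. Set against a floor of 3 counts over both A549 libraries at 0 h, MX2 was at least 1711-fold higher and IFI44L at least 2646-fold higher in NCI-H596. OAS2, with 3 counts in A549, was 3135 times higher (95% counting interval 1073 to 15206). All 3 counts lay in replicate 1 and replicate 2 had 0, so this fold rests on 1 library, and the fitted log2 difference was 10.59 without replicate 2 and 15.41 without replicate 1, the latter no bound. These intervals and floors cover counting error only. Relative to summed exon length, IFI6 was the highest in NCI-H596 at 0 h with 779 CPM per kb. ISG15 with 363, BST2 with 329 and IFI44 with 125 followed, and ISG20 was the lowest with 1.81. These lengths join all annotated exons of a gene and can exceed the transcript expressed, so the order between genes depends on the annotation. In A549 the order was another, with ISG20 first at 9.29 CPM per kb, then PARP14 at 5.97 and IFIT5 at 5.96. PARP14 (61.3 ± 11.9 CPM (SD, n = 2)) and IFIT5 (26.0 ± 0.830 CPM (SD, n = 2)) did not differ per kb beyond the spread of PARP14.

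**Figure D1:**
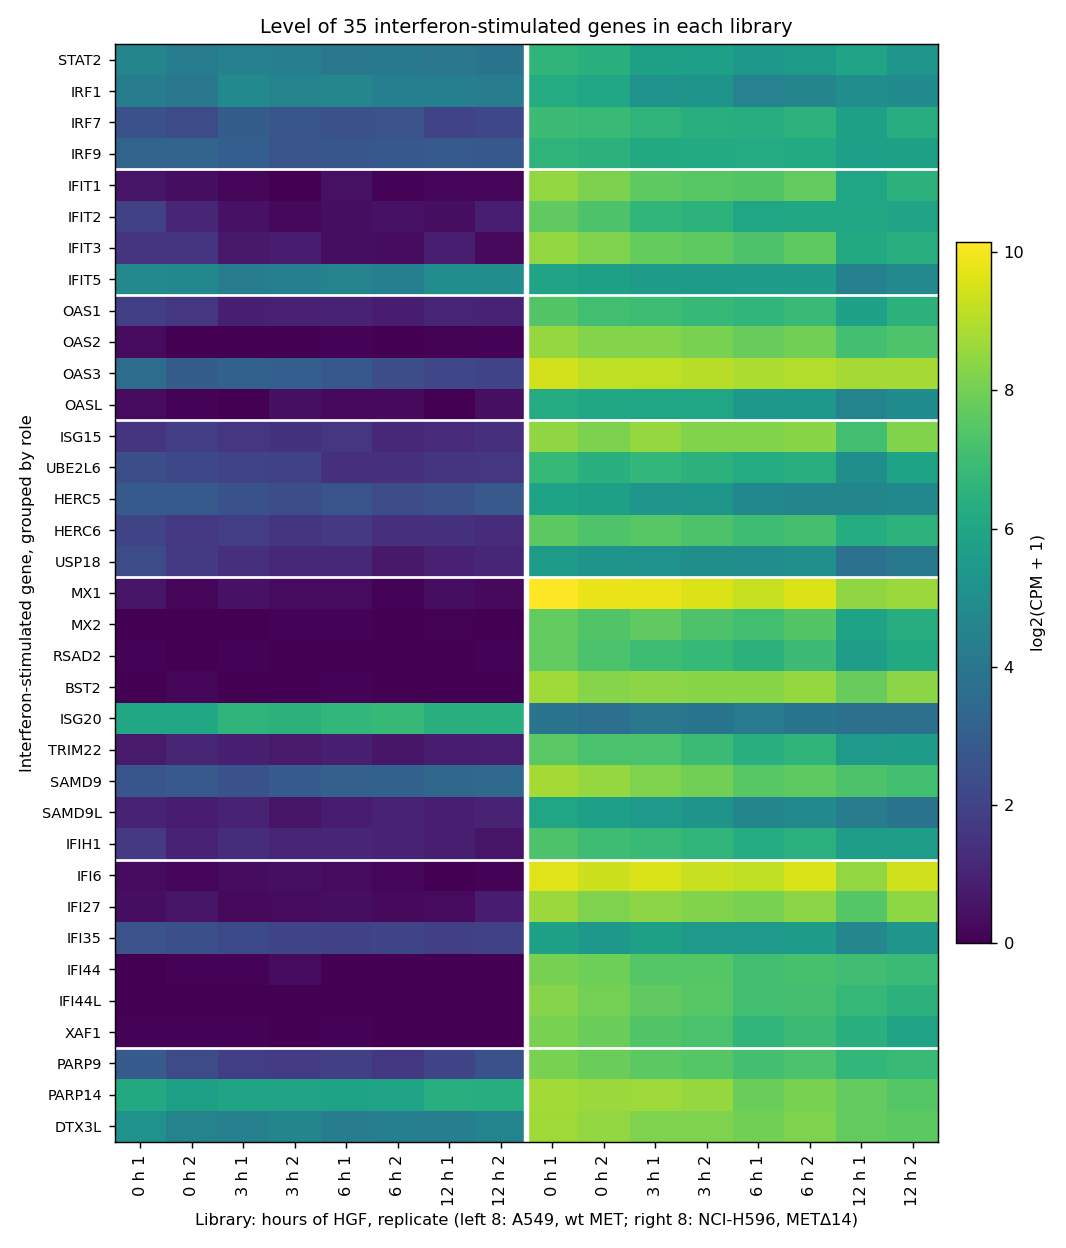
Level of each of the 35 interferon-stimulated genes (rows, grouped by role) in each of the 16 libraries (columns), as log2(CPM + 1). The 8 NCI-H596 columns are bright for nearly every gene and dim from 0 h to 12 h, whereas the 8 A549 columns are dark except for ISG20, PARP14, DTX3L, IFIT5, IRF1 and STAT2.

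After HGF, interferon-stimulated genes fell in cells expressing MET∆14 and none rose. Their summed level in NCI-H596 was 9472 and 7813 CPM at 0 h, 7343 and 6548 at 3 h, 5502 and 6376 at 6 h and 3721 and 4597 at 12 h. Every library after HGF lay below both 0 h libraries, and the mean at 12 h was 48.1% of that at 0 h. In A549 the sum lay between 262 and 314 CPM in all 8 libraries, with a 12 h mean at 102% of 0 h. In bulk RNA, fewer expressing cells and less RNA per cell cannot be told apart. At 12 h the sum in NCI-H596 was still 14.1 times that in A549. ISG20 contributes the most to the sum in A549, and it rose there, so the flat sum does not give the course of the typical gene.

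**Figure D2:**
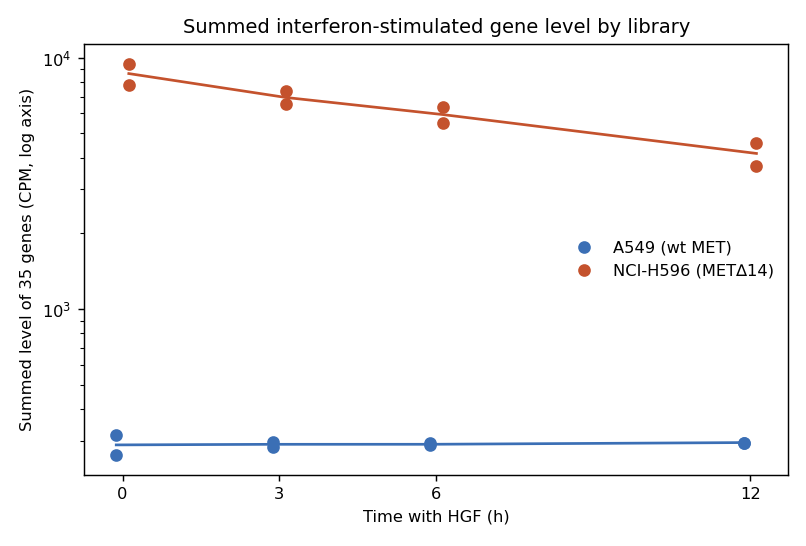
Summed level of the 35 genes (CPM, log axis) against hours of HGF, with 1 point per library and a line through the mean of 2 replicates. NCI-H596 declines from 9472 and 7813 CPM at 0 h to 3721 and 4597 CPM at 12 h, whereas A549 stays between 262 and 314 CPM.

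By gene, 16 of 35 were lower than at 0 h after 3 h of HGF in NCI-H596, beside 16.1% of all genes tested, 26 after 6 h, beside 22.5%, and 30 after 12 h, beside 20.1%. None was higher at any time, beside 15.5%, 21.6% and 18.3% of all genes. The median log2 fold change over the set was -0.36, -0.55 and -1.18 at the 3 times, beside -0.05, -0.04 and -0.02 for all genes tested. At 12 h, 27 genes were lower than at 3 h, beside 14.6% of all genes in this contrast. In 25 of the 35 genes the mean fell at each successive time, and 33 had their lowest mean at 12 h. Shares over all genes were not taken for these patterns, so these counts describe the set alone. Both replicates lay below both 0 h replicates for 25, 28 and 30 genes at the 3 times, beside 41.0%, 41.3% and 34.0% of all genes tested, and above them for 1, 1 and 0 genes, beside 32.0%, 36.0% and 27.8%.

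The early counts depended on which libraries were kept. Without replicate 1 of NCI-H596 at 0 h, in which all 35 genes were higher than in its partner, 10 genes were called lower at 3 h and 17 at 6 h in place of 16 and 26. Calls that remained in every refit with 1 library left out were those of STAT2, IRF1, IRF9, IFIT2, IFIT3, HERC5, SAMD9, IFI44, IFI44L and XAF1 at 3 h. At 12 h, 28 of the 30 calls remained in every such refit. The 2 that did not were OAS3, with a log2 fold change of -0.43 and adjusted p = 0.0586 without that control library, and IFI35, with -0.42 and 0.141 without the same library and -0.32 and 0.0863 without replicate 1 at 12 h.

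**Figure D3:**
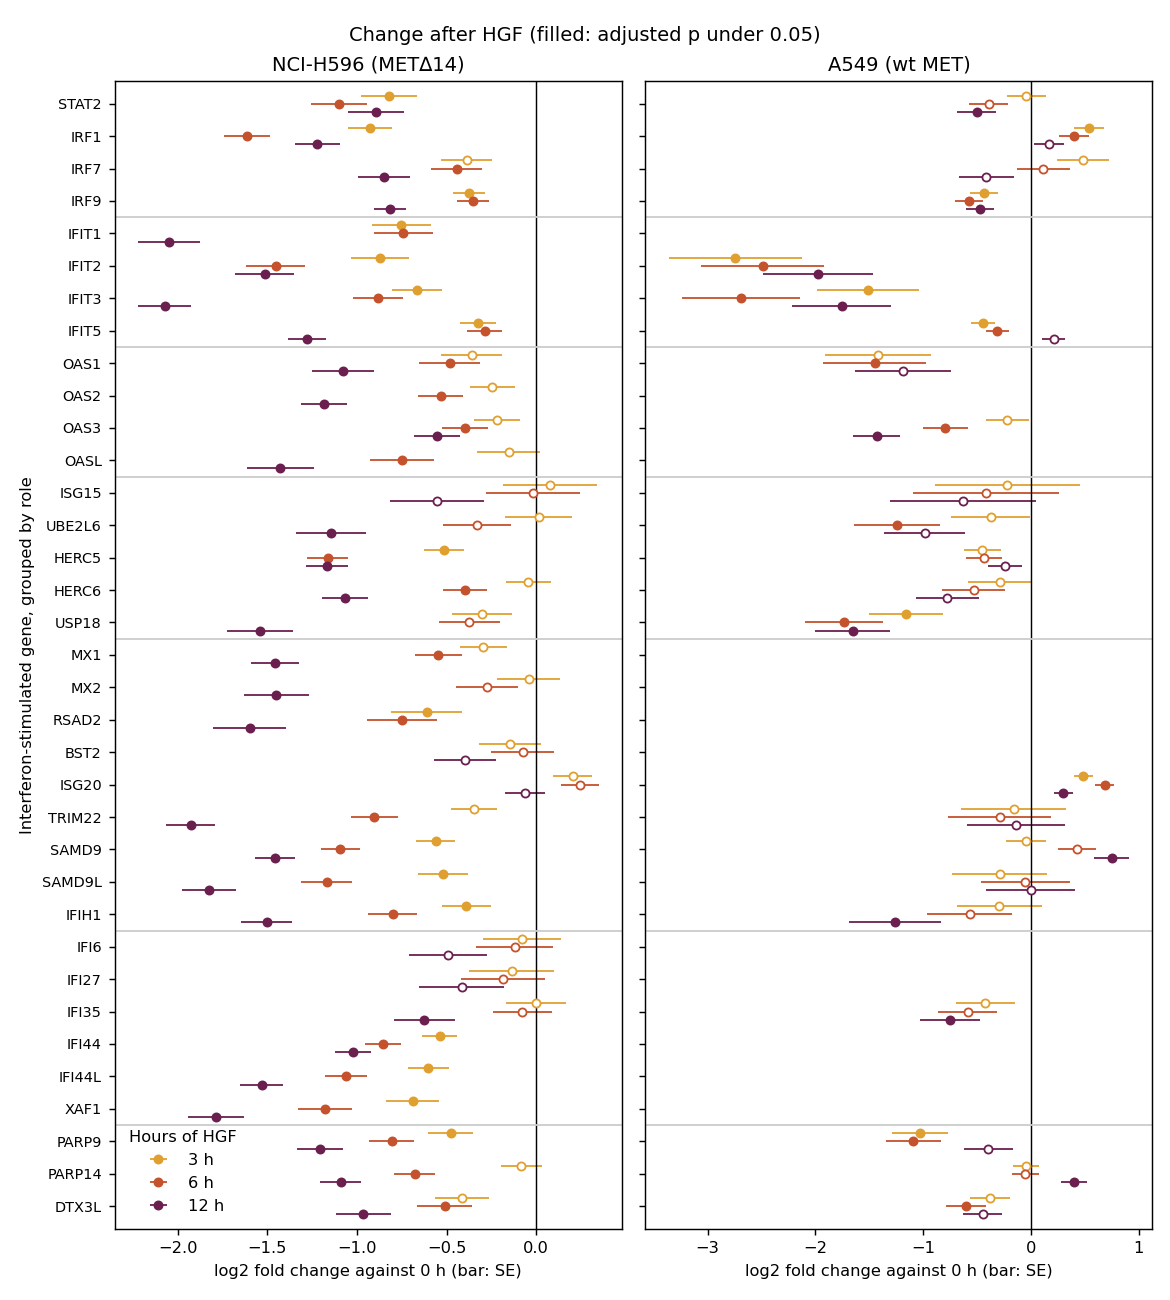
Log2 fold change against 0 h at 3, 6 and 12 h of HGF (bars: SE from the model, 2 replicates per condition), in NCI-H596 for all 35 genes and in A549 for the 23 with at least 20 counts at 0 h, with filled points at adjusted p under 0.05. In NCI-H596 the 12 h points reach -2.07 (IFIT3) and none is filled on the right of 0, whereas in A549 ISG20, IRF1, SAMD9 and PARP14 have filled points on the right.

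All 4 transcription factors were lower at 6 h and 12 h in NCI-H596, beside 22.5% and 20.1% of all genes tested. IRF1, an activator that is itself induced by interferon gamma through a GAS, was at 75.3 and 63.3 CPM at 0 h, 35.7 and 37.0 at 3 h, 21.6 and 23.4 at 6 h and 30.5 and 28.6 at 12 h. Its log2 fold change at 3 h and at 6 h was the most negative of the 35 genes. Its 2 groups at 0 h and 6 h are far apart, its lowest level was at 6 h, and the level at 12 h lay between those at 3 h and 6 h. The log2 fold change was -0.93 ± 0.12 (SE) at 3 h, -1.62 ± 0.13 (SE) at 6 h (adjusted p = 1.49e-07) and -1.22 ± 0.13 (SE) at 12 h. STAT2, a subunit of ISGF3, was at 99.5 and 85.6 CPM at 0 h, 53.2 and 51.5 at 3 h, 41.0 and 45.1 at 6 h and 60.2 and 38.4 at 12 h. It fell by 6 h (log2 fold change -1.10 ± 0.16 (SE), adjusted p = 5.03e-05), while its 12 h replicates differed from each other by more than those of any other time. IRF9, the DNA-binding subunit of ISGF3, and IRF7, the factor that amplifies interferon alpha production, had log2 fold changes of -0.82 ± 0.09 (SE) and -0.85 ± 0.15 (SE) at 12 h. In the annotation, 22.9% of the exon bases of IRF1 overlap antisense transcripts of 2 genes, IRF1-AS1 among them, and 23.9% of those of IRF9 another gene on the same strand, and the use of strand in counting is not given in the sources used here, so their levels are uncertain to that extent.

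The IFIT family, cytoplasmic proteins that bind viral RNA without the cap marks of self RNA, had 4 of 4 genes lower at every time. Among all genes tested, 16.1%, 22.5% and 20.1% were lower at 3, 6 and 12 h. The family's median log2 fold change was -1.78 at 12 h, when IFIT3 and IFIT1 had the most negative changes of the 35 genes. In NCI-H596, IFIT1 was at 357 and 278 CPM at 0 h, 195 and 182 at 3 h, 173 and 205 at 6 h and 62.5 and 91.5 at 12 h. IFIT3, which stabilises IFIT1, followed the same course with 364 and 287 CPM at 0 h, 216 and 196 at 3 h, 158 and 195 at 6 h and 70.6 and 84.5 at 12 h. Both dropped once by 3 h, differed little between 3 h and 6 h and dropped again by 12 h, where the log2 fold change was -2.05 ± 0.17 (SE) for IFIT1 and -2.07 ± 0.15 (SE) for IFIT3 (adjusted p = 1.23e-06 and 1.67e-07). IFIT2 was at 202 and 156 CPM at 0 h, 101 and 94.0 at 3 h, 63.3 and 67.1 at 6 h and 65.0 and 59.7 at 12 h, so that most of its fall was complete by 6 h (-1.45 ± 0.16 (SE), against -1.52 ± 0.17 (SE) at 12 h). IFIT5 was at 60.0 and 54.1 CPM at 0 h, 46.2 and 44.8 at 3 h, 45.8 and 47.5 at 6 h and 21.1 and 26.2 at 12 h, with a small change at 3 h (-0.33 ± 0.10 (SE)) and a larger one at 12 h (-1.28 ± 0.11 (SE)). The calls of IFIT1 at 3 h and of IFIT5 at 3 h and 6 h were lost without replicate 1 at 0 h.

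The OAS genes make oligoadenylates that activate the ribonuclease RNase L, apart from OASL, which lacks that activity. None of the 4 was called at 3 h. All 4 were lower at 6 h and at 12 h, beside 22.5% and 20.1% of all genes tested. In NCI-H596, OAS2 was at 374 and 308 CPM at 0 h, 304 and 272 at 3 h, 223 and 249 at 6 h and 139 and 162 at 12 h. OASL was at 74.0 and 64.8 CPM at 0 h, 60.9 and 63.8 at 3 h, 41.1 and 41.4 at 6 h and 22.6 and 29.5 at 12 h, with a log2 fold change of -1.43 ± 0.19 (SE) at 12 h (adjusted p = 4.11e-05), the largest fall of the family. OAS1 was at 170.3 and 134 CPM at 0 h, 126 and 111 at 3 h, 101 and 116 at 6 h and 55.5 and 89.9 at 12 h. The 12 h replicates of OAS1 stood apart from each other but both lay below every earlier library. OAS3, the longest of the family and the one of highest level in CPM, was at 694 and 582 CPM at 0 h, 575 and 523 at 3 h, 474 and 495 at 6 h and 435 and 435 at 12 h. Its fall was the smallest of the 4 (-0.55 ± 0.13 (SE) at 12 h). Without replicate 1 at 0 h, OAS1, OAS2 and OAS3 were not called at 6 h.

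ISG15 is attached to proteins by UBE2L6 and the ligase HERC5 and removed by USP18, which also restrains interferon receptor signalling. Of these 5 genes with HERC6, the number lower in NCI-H596 was 1 at 3 h, 2 at 6 h and 4 at 12 h. The shares of all genes tested were 16.1%, 22.5% and 20.1%. HERC5 was at 58.5 and 53.0 CPM at 0 h, 38.1 and 39.8 at 3 h, 25.5 and 24.2 at 6 h and 24.4 and 25.3 at 12 h, reaching its low level by 6 h (-1.16 ± 0.12 (SE), adjusted p = 1.33e-06) and staying there (-1.17 ± 0.12 (SE) at 12 h). HERC6 was at 189 and 163 CPM at 0 h, 183 and 159 at 3 h, 127 and 141 at 6 h and 75.9 and 93.0 at 12 h, with no change at 3 h that passed the test and a log2 fold change of -1.07 ± 0.13 (SE) at 12 h. USP18 was at 45.7 and 37.3 CPM at 0 h, 34.8 and 32.5 at 3 h, 30.8 and 33.1 at 6 h and 12.6 and 16.1 at 12 h. It was not called at 3 h or 6 h (-0.37 ± 0.17 (SE) at 6 h) and fell by 12 h (-1.54 ± 0.18 (SE), adjusted p = 1.41e-05). UBE2L6 was at 109 and 85.7 CPM at 0 h, 105 and 91.3 at 3 h, 74.6 and 80.1 at 6 h and 31.9 and 57.6 at 12 h. Its log2 fold change at 12 h was -1.14 ± 0.20 (SE), and -0.76 without replicate 1 at 12 h. ISG15 itself did not pass the test at any time, with 349 and 281 CPM at 0 h, 368 and 296 at 3 h, 301 and 321 at 6 h and 134 and 297 at 12 h. Replicate 1 at 12 h lay well below all other NCI-H596 libraries for ISG15, and replicate 2 lay among them (-0.55 ± 0.26 (SE), adjusted p = 0.122).

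Of the 9 other antiviral effectors, 4 were lower at 3 h, 6 at 6 h and 7 at 12 h. For all genes tested these shares were 16.1%, 22.5% and 20.1%. The median log2 fold change of the group was -1.46 at 12 h. MX1, a dynamin-like GTPase that traps viral nucleocapsids and the gene of highest CPM in the set, was at 1129 and 921 CPM at 0 h, 890.2 and 782 at 3 h, 631 and 773 at 6 h and 354 and 393 at 12 h. MX2, its relative that acts at the nuclear pore, was at 208 and 165 CPM at 0 h, 204 and 158 at 3 h, 135 and 173 at 6 h and 57.9 and 79.2 at 12 h. MX2 was not called at 3 h or 6 h and fell by 12 h (-1.45 ± 0.18 (SE)), close to MX1 (-1.46 ± 0.13 (SE)). RSAD2 (viperin), which makes a chain-terminating nucleotide, was at 209 and 153 CPM at 0 h, 128 and 109 at 3 h, 89.7 and 124 at 6 h and 49.4 and 70.7 at 12 h (log2 fold change -1.60 ± 0.20 (SE) at 12 h). TRIM22, a RING finger protein of the TRIM family, was at 186 and 151 CPM at 0 h, 147 and 118 at 3 h, 80.7 and 99.1 at 6 h and 42.9 and 45.9 at 12 h. With -1.93 ± 0.14 (SE) at 12 h (adjusted p = 1.5e-07) it had the largest fall of this group. Without replicate 1 at 0 h, RSAD2 was not called at 3 h or 6 h and MX1 not at 6 h.

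SAMD9 and SAMD9L, neighbouring genes whose products restrict poxviruses, fell steadily. SAMD9 was at 435 and 367 CPM at 0 h, 289 and 254 at 3 h, 181 and 195 at 6 h and 158 and 133 at 12 h, which gives log2 fold changes of -0.56 ± 0.11 (SE), -1.09 ± 0.11 (SE) and -1.46 ± 0.11 (SE) at 3, 6 and 12 h (adjusted p = 2.19e-07 at 12 h). SAMD9L was at 63.8 and 51.4 CPM at 0 h, 43.1 and 37.3 at 3 h, 24.2 and 26.8 at 6 h and 18.0 and 14.1 at 12 h, reaching -1.83 ± 0.15 (SE) at 12 h. IFIH1 (MDA5), a sensor of double-stranded RNA, was at 158 and 127 CPM at 0 h, 115 and 102 at 3 h, 75.9 and 87.1 at 6 h and 50.6 and 49.5 at 12 h and reached -1.51 ± 0.14 (SE). In these 3 genes every library after HGF lay below both 0 h libraries. Without replicate 1 at 0 h, SAMD9L and IFIH1 were not called at 3 h. BST2 (tetherin), which holds budding virus at the cell surface, was called at no time, with 409 and 315 CPM at 0 h, 335 and 319 at 3 h, 319 and 367 at 6 h and 222 and 328 at 12 h. ISG20, an RNA exonuclease, was called at no time either and lay between 12.1 and 16.5 CPM in all 8 NCI-H596 libraries.

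The IFI genes split into those that fell and those that were not called. IFI44L and its neighbour IFI44, both named for their induction by interferon, fell at every time. IFI44L was at 318 and 258 CPM at 0 h, 201 and 179 at 3 h, 135 and 141 at 6 h and 108 and 90.9 at 12 h. IFI44 was at 269 and 239 CPM at 0 h, 176 and 174 at 3 h, 134 and 147 at 6 h and 130.1 and 119 at 12 h. Their log2 fold changes at 12 h were -1.53 ± 0.12 (SE) (adjusted p = 3.7e-06) and -1.02 ± 0.10 (SE). XAF1, which binds the apoptosis inhibitor XIAP, was at 273 and 235 CPM at 0 h, 167 and 148 at 3 h, 101 and 123 at 6 h and 86.4 and 59.4 at 12 h and also fell at every time (-1.79 ± 0.16 (SE) at 12 h). IFI35 was lower at 12 h alone (-0.62 ± 0.17 (SE)), a call lost without single libraries as given above. IFI6, a protein of the endoplasmic reticulum, was at 794 and 664 CPM at 0 h, 757 and 625 at 3 h, 583 and 757 at 6 h and 365 and 674 at 12 h, and IFI27, a mitochondrial protein, at 396 and 292 CPM at 0 h, 329.6 and 296 at 3 h, 272 and 332 at 6 h and 177 and 339.8 at 12 h. As with ISG15, both had a low replicate 1 and a replicate 2 within the earlier range at 12 h, and neither was called (adjusted p = 0.0948 and 0.193). Of the exon bases of XAF1, 38.3% overlap an antisense transcript (PRAL), and of those of IFI6, 23.1% overlap LINC02574 on the same strand.

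PARP9 and DTX3L form an ADP-ribosylation and ubiquitin ligase complex from a shared promoter region, and PARP14 is a mono-ADP-ribosyltransferase. All 3 were lower at 6 h and 12 h, beside 22.5% and 20.1% of all genes tested. PARP9 was at 274 and 233 CPM at 0 h, 190.1 and 174 at 3 h, 138 and 151 at 6 h and 104 and 116 at 12 h, with -1.21 ± 0.13 (SE) at 12 h. PARP14 was at 426 and 393 CPM at 0 h, 399.6 and 374 at 3 h, 235 and 277 at 6 h and 207 and 177 at 12 h. It was not called at 3 h (-0.08 ± 0.11 (SE)) and fell by 6 h (-0.68 ± 0.12 (SE)) and 12 h (-1.09 ± 0.12 (SE), adjusted p = 5.3e-06). DTX3L fell by 12 h with a log2 fold change of -0.96 ± 0.15 (SE). Without replicate 1 at 0 h, PARP9 was not called at 3 h and DTX3L not at 6 h.

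The 5 genes that were called at no time in NCI-H596 were ISG15, BST2, ISG20, IFI6 and IFI27. All 5 had an ISRE core in a promoter. Of the 19 genes with the core, 14 were lower at 12 h, and of the 9 genes whose promoter entry lacked it, all 9 were lower. The 7 genes with no promoter entry were lower too. No share over all genes with or without the core was taken, so these counts describe the set alone. The 12 h replicates of NCI-H596 differed with exon length. Across the 35 genes, which are not independent replicates, the log2 ratio of replicate 1 to replicate 2 correlated with log2 exon length (Pearson r = 0.552), as it did over 12852 genes of the table (r = 0.361). The shortest, ISG15 with 867 exon bases and IFI6 with 936, were at 134 against 297 CPM and at 365 against 674 CPM, whereas STAT2 with 9310 bases was at 60.2 against 38.4 CPM. For ISG15, BST2, IFI6 and IFI27 the change at 12 h depended on which replicate was kept. Which replicate is off cannot be told from these libraries. Each refit assumed the remaining library to vary like the other groups. Without replicate 2 the log2 fold change was -1.24 for ISG15, -0.71 for BST2, -1.01 for IFI6 and -0.97 for IFI27. Without replicate 1 it was -0.08 for ISG15, -0.14 for BST2, -0.11 for IFI6 and -0.02 for IFI27. With both replicates and no filter on low counts, these 4 were called lower (-0.55 for ISG15, adjusted p = 2.39e-06). Their fold changes were like those of the main test. ISG20 was called in none of these refits.

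**Figure D4:**
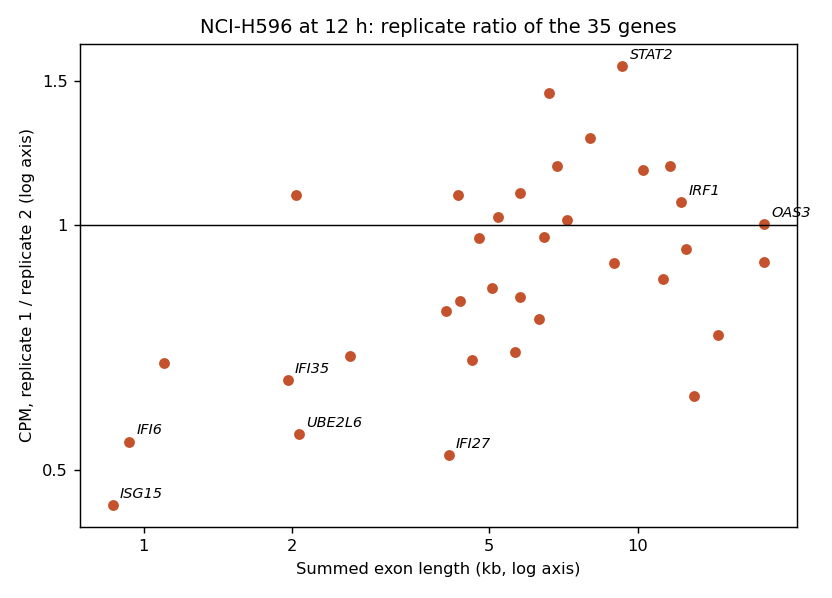
Ratio of the CPM in replicate 1 to that in replicate 2 of NCI-H596 at 12 h (log axis) against the summed exon length of each of the 35 genes (kb, log axis), with 1 point per gene and a line at equal levels. Short genes such as ISG15, IFI6, UBE2L6 and IFI35 lie below the line and STAT2 lies highest.

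In A549 the levels were low and the changes fewer and in both directions. Of the 35 genes, 6 were lower and 2 higher at 3 h, 10 lower and 2 higher at 6 h, and 8 lower and 3 higher at 12 h, beside 7.16%, 17.8% and 18.2% of all genes tested that were lower and 10.3%, 16.4% and 16.9% that were higher. For the 23 genes that pass the filter on A549 alone, the median log2 fold change was -0.29, -0.53 and -0.47 at the 3 times, beside -0.04, -0.05 and 0.00 for all genes. In NCI-H596 the median of the same 23 genes was -0.38, -0.51 and -1.14, close to A549 at 3 h and 6 h and lower at 12 h. The A549 calls all lay among these 23. In NCI-H596, 11, 18 and 21 of them were lower, beside 16.1%, 22.5% and 20.1% of all genes tested. In A549, both directions are again given for the whole set. Both replicates lay below both 0 h replicates for 13, 15 and 17 of the 35 genes, beside 31.4%, 37.8% and 34.8% of all genes tested, and above them for 4, 3 and 5 genes, beside 26.0%, 30.5% and 33.3%. From 3 h to 12 h, 2 genes were lower and 3 higher, beside 11.1% and 8.83% of all genes. The A549 replicates at 0 h, used in each contrast against 0 h, also differed with exon length. The log2 ratio of replicate 1 to replicate 2 correlated with log2 exon length (Pearson r = 0.234 over 12645 genes and 0.317 over 21 of the set).

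Most calls of a fall in A549 were lost in some refit with 1 library left out. Such a refit has fewer libraries to test with, so a lost call does not show that a fall came from 1 library. Without replicate 1 of A549 at 0 h, 0, 3 and 4 genes were lower at 3, 6 and 12 h in place of 6, 10 and 8. Without replicate 1 or replicate 2 at 3 h, 2 and 0 were lower at 3 h, without replicate 1 or replicate 2 at 6 h, 6 and 5 at 6 h, and without either replicate at 12 h, 4 at 12 h. The genes called lower in every refit with 1 library left out were IFIT3 and USP18 at 6 h, and IFIT3, USP18 and OAS3 at 12 h. IFIT3 was at 1.88 and 1.91 CPM at 0 h, 0.601 and 0.727 at 3 h, 0.303 and 0.269 at 6 h and 0.810 and 0.202 at 12 h in A549, with a log2 fold change of -2.69 ± 0.55 (SE) at 6 h (adjusted p = 0.00169). USP18 was at 4.12 and 2.26 CPM at 0 h, 1.60 and 1.21 at 3 h, 1.27 and 0.606 at 6 h and 0.905 and 1.14 at 12 h and its log2 fold change was -1.65 ± 0.35 (SE) at 12 h. OAS3 was at 10.9 and 6.86 CPM at 0 h, 7.95 and 7.27 at 3 h, 5.87 and 4.31 at 6 h and 3.43 and 3.09 at 12 h, with -1.43 ± 0.22 (SE) as its log2 fold change at 12 h (adjusted p = 0.000165). These 3 genes were also called lower at 12 h in NCI-H596.

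Other A549 calls were lost when 1 library was left out. IFIT2 was at 2.89 and 1.13 CPM at 0 h, 0.401 and 0.162 at 3 h, 0.303 and 0.404 at 6 h and 0.286 and 0.807 at 12 h and was called at all 3 times (-1.97 ± 0.51 (SE) at 12 h), but replicate 1 at 0 h stood well above its partner, and without it the calls were lost at each time. PARP9 was at 6.44 and 4.17 CPM at 0 h, 2.67 and 2.51 at 3 h, 2.78 and 2.15 at 6 h and 3.33 and 4.91 at 12 h, called at 3 h and 6 h and not without that library. OAS1 was at 2.68 and 2.05 CPM at 0 h, 0.868 and 0.889 at 3 h, 0.968 and 0.740 at 6 h and 1.05 and 1.01 at 12 h. UBE2L6 was at 4.34 and 3.53 CPM at 0 h, 3.07 and 2.99 at 3 h, 1.63 and 1.68 at 6 h and 1.95 and 2.02 at 12 h. Both were called at 6 h and not without that library. IFIH1 was at 2.24 and 0.990 CPM at 0 h, 1.54 and 1.05 at 3 h, 1.15 and 1.01 at 6 h and 0.810 and 0.471 at 12 h, called at 12 h and likewise lost. IRF9 was called at all 3 times (-0.58 ± 0.13 (SE) at 6 h), with each of these calls lost in at least 1 refit: at 3 h without replicate 1 at 0 h, at 6 h without replicate 1 at 6 h and at 12 h without replicate 2 at 12 h. STAT2 was at 23.2 and 18.6 CPM at 0 h, 21.2 and 19.4 at 3 h, 15.8 and 16.1 at 6 h and 15.3 and 14.1 at 12 h, called at 12 h and not without replicate 1 at 0 h. The calls of IFIT5 at 3 h and 6 h, OAS3 and DTX3L at 6 h and IFI35 at 12 h were lost without the same library. The remaining genes described above for NCI-H596 were not called in A549 in this direction or lay at very low levels: HERC6 at 1.41 to 3.26 CPM, TRIM22 at 0.538 to 1.06 CPM, SAMD9L at 0.485 to 1.01 CPM, IFIT1 at 0 to 0.506 CPM, OASL at 0 to 0.336 CPM, MX1 at 0.0673 to 0.506 CPM, OAS2 at 0 to 0.217 CPM, IFI44 at 0 to 0.242 CPM, and MX2, RSAD2 and XAF1 at no more than 0.0808 CPM.

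Genes that rose in A549 were ISG20 at every time, IRF1 at 3 h and 6 h, and SAMD9 and PARP14 at 12 h. ISG20 was at 66.5 and 67.0 CPM at 0 h, 97.1 and 89.6 at 3 h, 105 and 109.8 at 6 h and 83.7 and 80.7 at 12 h, above both 0 h libraries in each of the 6 libraries after HGF. Its log2 fold change was 0.48 ± 0.09 (SE) at 3 h, 0.69 ± 0.09 (SE) at 6 h (adjusted p = 3.32e-05) and 0.30 ± 0.09 (SE) at 12 h. The calls of ISG20 at 3 h and 6 h remained in every refit with 1 library left out, and that at 12 h did not, being lost without either replicate at 0 h or either at 12 h. The call of SAMD9 at 12 h remained in every such refit. PARP14 was not called at 12 h without replicate 2 at 0 h or either replicate at 12 h. IRF1 was not called at 3 h without replicate 2 at 0 h or replicate 1 at 3 h, nor at 6 h without either replicate at 0 h or replicate 1 at 6 h.

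The test of the difference asks whether the change over the 3 times after HGF differed between the lines. It called 10 of the 35 genes, a smaller share than the 37.6% of all genes tested, so the set was not called more often than genes in general. IRF1, IFIT5, HERC5, SAMD9 and PARP14 were called in every refit with 1 library left out and under every other alternative that tested them. USP18, OAS3, TRIM22, SAMD9L and PARP9 were not, and 6 genes in place of 10 were called without replicate 2 of A549 at 12 h.

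IRF1 moved in opposite directions. In A549 it was at 18.0 and 15.8 CPM at 0 h, 26.8 and 22.3 at 3 h, 25.0 and 19.6 at 6 h and 19.6 and 18.3 at 12 h, so that it was higher after 3 h while it fell in NCI-H596, and the difference in log2 fold change, NCI-H596 minus A549, was -1.47 ± 0.19 (SE) at 3 h, -2.02 ± 0.19 (SE) at 6 h and -1.39 ± 0.19 (SE) at 12 h (adjusted p = 9.24e-06 over the 3 times). The 4 libraries at 6 h overlapped between the lines, although NCI-H596 stood 4.05-fold higher at 0 h. SAMD9 was at 5.50 and 6.15 CPM at 0 h, 4.94 and 6.47 at 3 h, 7.75 and 7.94 at 6 h and 9.67 and 9.96 at 12 h in A549, rising where NCI-H596 fell, with a difference of -2.21 ± 0.20 (SE) at 12 h (adjusted p = 3.96e-06). The SAMD9 levels still did not overlap between the lines.

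PARP14 in A549 was at 69.7 and 52.9 CPM at 0 h, 59.3 and 59.5 at 3 h, 58.4 and 59.9 at 6 h and 82.1 and 79.3 at 12 h, level to 6 h and higher at 12 h, with a difference from NCI-H596 of -1.49 ± 0.17 (SE) at 12 h (adjusted p = 2.29e-05). IFIT5 in A549 was at 26.6 and 25.5 CPM at 0 h, 18.6 and 19.6 at 3 h, 22.0 and 19.9 at 6 h and 30.01 and 30.4 at 12 h. It fell in both lines at 3 h and had returned in A549 by 12 h, when both A549 libraries lay above both NCI-H596 libraries, and the difference at 12 h was -1.49 ± 0.15 (SE) (adjusted p = 3.43e-06). HERC5 in A549 was at 6.37 and 6.29 CPM at 0 h, 4.94 and 4.28 at 3 h, 5.27 and 4.04 at 6 h and 4.72 and 6.12 at 12 h, with no call at any time and a difference of -0.93 ± 0.20 (SE) at 12 h (adjusted p = 0.00333). In these 5 genes the change at 12 h was lower in NCI-H596 than in A549.

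**Figure D5:**
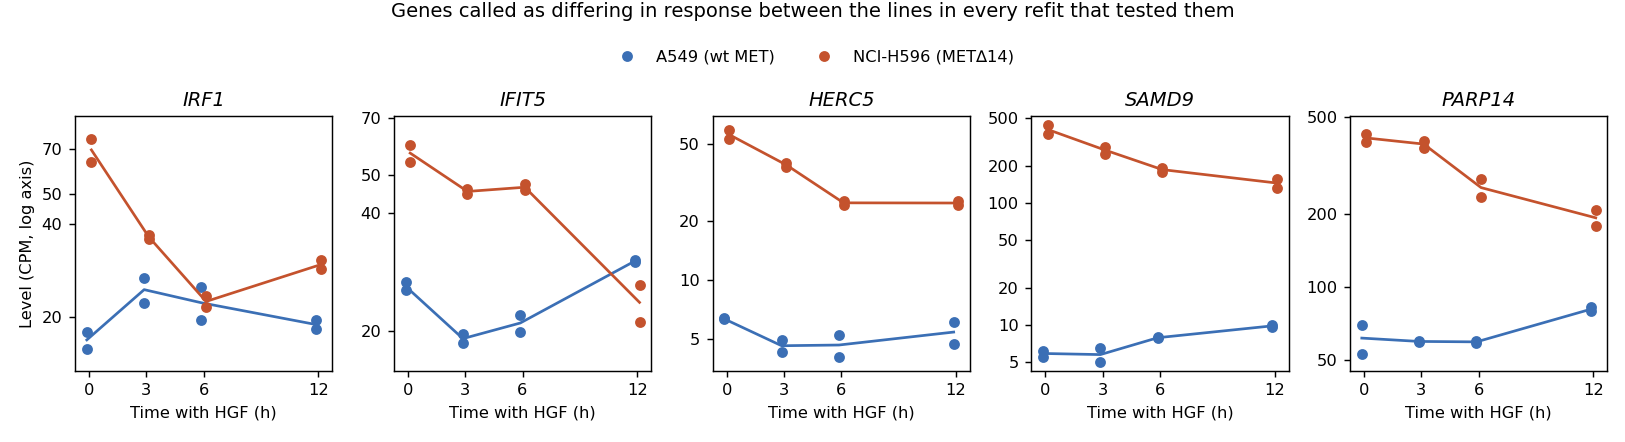
Level (CPM, log axis with its own range in each panel) of IRF1, IFIT5, HERC5, SAMD9 and PARP14 against hours of HGF, with 1 point per library and a line through the mean of 2 replicates. In NCI-H596 each falls, whereas in A549 IRF1 is higher at 3 h, SAMD9 and PARP14 are higher at 12 h and IFIT5 crosses above NCI-H596 at 12 h.

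Among the other 5 genes, TRIM22, SAMD9L and PARP9 had a lower change in NCI-H596 at 12 h, with differences of -1.79 ± 0.48 (SE), -1.83 ± 0.43 (SE) and -0.81 ± 0.26 (SE). OAS3 went the other way, with a larger fall in A549 (0.88 ± 0.25 (SE) at 12 h), as did USP18 at 6 h (1.36 ± 0.40 (SE)). At single times, NCI-H596 minus A549, 0 genes had a higher and 3 a lower change at 3 h, beside 8.93% and 8.47% of all genes tested, and 2 had a higher and 6 a lower one at 6 h, beside 16.4% and 13.8%. These include 4 of the 25 genes not called over the 3 times. STAT2 had a lower change at 3 h (-0.78 ± 0.24 (SE), adjusted p = 0.0337) and 6 h (-0.71 ± 0.24 (SE)), IRF7 at 3 h (-0.87 ± 0.28 (SE), adjusted p = 0.0439) and ISG20 at 6 h (-0.44 ± 0.14 (SE)), whereas IFIT3 had a higher one at 6 h (1.81 ± 0.59 (SE), adjusted p = 0.0308). Each of these calls was lost in at least 3 refits with 1 library left out. In 12 of the 35 genes the A549 counts were too low to pass the filter alone. In the additive model, 26 genes were lower on average after HGF and 1 higher, beside 17.2% and 13.4% of all genes tested. That model fits 1 time course to both lines, so its calls do not show a change in each line.

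Genes upstream of the set were read from lists written by function. Of 9 interferon ligand genes, only IFNE passed the filter on low counts, and it was higher at 12 h in both lines (log2 fold change 1.16 ± 0.37 (SE) in NCI-H596, 1.27 ± 0.45 (SE) in A549). Its 12 h replicates in NCI-H596 stood at 22.3 and 7.23 CPM, and the lower of them lay within the 0 h replicates, 5.87 and 7.75 CPM. IFNB1, the first interferon made on viral sensing, had 6 and 7 counts at 0 h in NCI-H596, 8 and 5 at 3 h, 6 and 3 at 6 h, 1 and 0 at 12 h, and 0 in all A549 libraries. IFNL1, a type III interferon, had between 1 and 9 counts in each NCI-H596 library and at most 1 in A549. Such counts were too low to test.

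Of the type I receptor subunits, IFNAR1 was called at no time against 0 h in either line, and IFNAR2 rose in NCI-H596 (0.53 ± 0.12 (SE) at 12 h) and was not called in A549. IL10RB, a subunit of the type III receptor, fell in NCI-H596 (-0.75 ± 0.16 (SE) at 12 h), and IFNGR2, a subunit of the interferon gamma receptor, rose in A549 (0.97 ± 0.13 (SE) at 6 h).

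Of 13 genes of nucleic acid sensing, 6 were lower and 2 higher at 12 h in NCI-H596, beside 20.1% and 18.3% of all genes tested. TLR3, an endosomal receptor for double-stranded RNA, was at 23.6 and 20.6 CPM at 0 h, 13.4 and 11.8 at 3 h, 6.36 and 7.07 at 6 h and 3.56 and 3.43 at 12 h and had the largest fall (-2.65 ± 0.24 (SE), adjusted p = 1.1e-06), followed by DHX58, a regulator of RNA sensors (-1.41 ± 0.18 (SE)). In A549 the largest falls were those of IKBKE, a kinase of the sensing pathway (-1.74 ± 0.23 (SE) at 12 h), and TLR3 (-1.33 ± 0.41 (SE)). A list of 9 regulators held SOCS1, SOCS3, PIAS1, PTPN2, PTPN6, IRF2, IRF2BP2, TRIM25 and NLRC5. Of these, 2 were higher and 4 lower at 3 h in NCI-H596, beside 15.5% and 16.1% of all genes, and 6 lower at 12 h, beside 20.1%. SOCS1, a JAK inhibitor, was at 5.15 and 5.71 CPM at 0 h, 15.4 and 10.9 at 3 h, 11.2 and 12.6 at 6 h and 3.56 and 4.91 at 12 h in NCI-H596. It rose at 3 h (1.26 ± 0.22 (SE), adjusted p = 0.000524) and 6 h and was not called at 12 h, when both libraries lay below those of 0 h. PTPN6, a phosphatase, fell in NCI-H596 (-1.28 ± 0.17 (SE) at 6 h) and in A549 (-1.99 ± 0.23 (SE) at 12 h), and SOCS3 rose in A549 (1.13 ± 0.11 (SE) at 3 h).

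A further list of 42 interferon-stimulated genes outside the 35, of which 40 were tested, was read beside them. In NCI-H596, 16 were lower and 2 higher at 3 h (all genes 16.1% and 15.5%), 20 and 2 at 6 h (22.5% and 21.6%), and 32 and 0 at 12 h (20.1% and 18.3%), with a median log2 fold change of -0.72 at 12 h, beside -0.02 for all genes. TNFSF10 (TRAIL), a death receptor ligand, was at 168 and 127 CPM at 0 h, 44.2 and 40.5 at 3 h, 15.6 and 23.9 at 6 h and 26.7 and 39.0 at 12 h in NCI-H596 and at 0 to 0.145 CPM in A549, with -2.87 ± 0.24 (SE) at 6 h (adjusted p = 5.61e-06). RTP4 was at 19.0 and 15.3 CPM at 0 h, 6.03 and 5.83 at 3 h, 5.84 and 5.96 at 6 h and 2.57 and 3.62 at 12 h and had 0 counts in A549, with -2.50 ± 0.22 (SE) at 12 h. In A549, 4 of the 40 were lower and 2 higher at 3 h (all genes 7.16% and 10.3%), 9 and 3 at 6 h (17.8% and 16.4%), and 8 and 5 at 12 h (18.2% and 16.9%), with a median of -0.06 at 12 h. The largest falls there were those of APOL1 (-2.96 ± 0.56 (SE) at 12 h) and TRIM34 (-2.16 ± 0.67 (SE) at 6 h). TRIM34 was at 2.39 and 2.19 CPM at 0 h and 0.968 and 0 CPM at 6 h in A549, and without replicate 2 at 6 h, which had 0 counts, its log2 fold change at 6 h was -1.21 (adjusted p = 0.109).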

How the data were processed

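Per the labels, the data are RNA-seq of A549 and NCI-H596 cells. The authors aligned reads to hg38 using STAR. The deposited values are raw counts, whole numbers per gene. The processing notes list STAR 2.5.0 and RSEM 1.3.2. The role of RSEM, the annotation and the use of strand are not given in the sources used here. A549 columns carry a variant line name and were matched by the rest of the name.

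Tests used edgeR 4.0.16 under R 4.3.3 (filterByExpr with a minimum count of 10 and total of 15, TMM, robust quasi-likelihood test, 1 coefficient per condition over 16 libraries, common biological coefficient of variation 0.0868), with Benjamini-Hochberg adjustment over 15067 genes and a threshold of 0.05. An F test over the 3 differences compared the lines, and a second model held line and time as additive terms. CPM use TMM-scaled totals. Exon lengths are unions of GENCODE v44 exons on hg38. Genes get values in every library where called with an absolute log2 fold change of at least 1, or where the response differs by at least 1, and at most 2 genes per list and line are named for the pathway. The members and lists were chosen with earlier results of these data known. In simulated counts the test at 3 h in NCI-H596 recovered 99% of 200 genes changed 2-fold among 14819, with 6 false calls, and the test of the difference 92%, with 11. No change was simulated in A549, where 0 genes were called at 3 h. Changed genes were drawn from those above a set level in both lines, and every gene had the same spread. The recovered shares therefore do not hold for genes of low count or wider spread. Alternatives were DESeq2 1.42.0, its size factors, upper quartile factors, other filters, a replicate block, each line alone and each library left out. Offsets for length and GC content were added after seeing the data. In A549, genes at very low levels are given by their range. A floor of 3 counts was used at 0. One gene of the pathway lists is not reported here.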

Additional observations from a re-analysis of the deposited data

Results flagged for a closer look

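In 10 of the 35 genes the response to HGF over 3, 6 and 12 h differed between NCI-H596 and A549 in the F test of the difference itself, by edgeR with p-values adjusted over all genes tested. This is a smaller share than the 37.6% of all genes, so the set was not called more often than genes in general. The adjusted p was 3.43e-06 for IFIT5, 3.96e-06 for SAMD9, 9.24e-06 for IRF1, 2.29e-05 for PARP14 and 0.00333 for HERC5. These 5 remained called under every alternative in which they were tested. It was 0.00764 for PARP9, 0.0124 for SAMD9L, 0.0343 for OAS3, 0.0352 for TRIM22 and 0.0473 for USP18, which lost the call when some single libraries were left out (USP18 in 12 of 16 refits). USP18 also lost it with DESeq2's size factors, upper quartile factors and offsets for length and GC content, TRIM22 with the replicate block and the offsets, and OAS3 with the offsets. For PARP9 and SAMD9L this was 1 refit, that without replicate 2 of A549 at 12 h, in which 6 genes were called.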

How the results depend on the processing

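No median over the 35 genes and no gene called between 2 conditions, or at 1 time between the lines, reversed its direction under any alternative tried. The test over 3 times has no single direction, and the mean of the 3 differences of PARP9 was 0.01, -0.33 without replicate 1 and 0.27 without replicate 2 of A549 at 0 h. The replicate block, DESeq2 and DESeq2's size factors moved no count by over 1.5 times. Among genes with at least 10 counts in every library, 17 of the 35 were tested, and 3 and 5 were lower at 3 and 12 h in A549, 9, 13 and 15 at 3, 6 and 12 h and 12 between 3 h and 12 h in NCI-H596, 16 were higher in NCI-H596 at 0 h and 11 lower by the additive model. Fewer genes were tested there. Without a filter on low counts, 5 genes were lower between 3 h and 12 h in A549 and 17 differed in response, with each line fitted alone 4 were lower in that contrast, upper quartile factors left 1 gene higher at 6 h in A549, and offsets for length and GC content made 1 gene higher at 6 h in NCI-H596. The cause was not tested. With 1 library left out, the genes higher in A549 ranged from 1 to 2 at 3 h, 1 to 3 at 6 h, 1 to 4 at 12 h and 1 to 3 between 3 h and 12 h, and those lower from 0 to 6, 3 to 12, 4 to 10 and 1 to 5. In NCI-H596 those lower ranged from 10 to 19 at 3 h, 17 to 28 at 6 h, 28 to 34 at 12 h and 22 to 31 between 3 h and 12 h, and the genes that differed in response from 6 to 15. Replicate numbers shared only a number, as correlations of replicate differences within lines ran from -0.309 to 0.0995, and 8 single calls were lost with the block on replicate number. The mean log2 CPM difference between the lines over the 35 genes was 6.23 with a prior count of 2 and 6.69 with 0.5. With 2 replicates per condition and few A549 counts, small differences were not detectable at this depth.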
